A study of Rattus norvegicus with 18 samples.

Results

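Transcript levels of 10 genes of the circadian clock were followed in the livers of 18 male Wistar rats. The genes were Arntl, Npas2, Per1, Per2, Per3, Cry1, Nr1d1, Nr1d2, Dbp and Tef, taken by their symbols from the 32623 genes quantified in every rat. All 10 passed the filter on low counts, which left 12904 genes for testing. Control rats (n = 6) received standard chow and normal drinking water and were kept for 12 weeks. NASH rats (n = 6) went through a protocol of 10 weeks, which began with 6 weeks of inhaled carbon tetrachloride (CCl4, a hepatotoxin) plus oral phenobarbital and ended with 4 weeks on a diet rich in fat and cholesterol (HFCD). In the model of NASH with cirrhosis, called NASH-CH (n = 6), rats had CCl4 and phenobarbital for 24 weeks and the HFCD over the last 16 of them. The 3 groups thus differed in diet, toxin, phenobarbital and duration together. All rats lived under 12 h of light and 12 h of dark, 2 to a cage, with food and water freely available. Livers were collected after a hemodynamic study under ketamine and midazolam anesthesia. The hour at which each liver was taken is not given in the sources used here, so that group and time of day cannot be told apart.

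The circadian clock is a transcriptional feedback loop that runs in nearly every cell, the hepatocyte included. The activators BMAL1, encoded by Arntl, and CLOCK or NPAS2 bind E-box motifs and switch on the Per and Cry genes, whose proteins return to the nucleus and repress the activators. In a second loop the same activators drive the nuclear receptors REV-ERBα (Nr1d1) and REV-ERBβ (Nr1d2), which repress Arntl and Npas2 through elements they share with the ROR receptors, and the transcription factors DBP and TEF carry the rhythm to output genes through D-boxes. In the rodent liver the transcripts of Arntl and Npas2 peak at another time of day than those of Dbp, the Rev-erb genes and the Per genes, so that single samples taken at different hours differ widely. These are background facts on the clock and not results of these livers.

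The promoters of the members were read for the motifs of these loops. RefSeq promoters of the GRCr8 assembly, spanning 250 bases before the start of transcription and 50 after it, were found for 9 of the 10 members, with 2 for Nr1d1. Cry1 was matched as a gene, but the set used here held no promoter for it. Both strands were searched for the E-box CACGTG, the E-prime box CACGTT, the D-box TTATGTAA or TTACGTAA and the ROR and REV-ERB element TAGGTCA or TGGGTCA, and no 2 of the matches shown overlap. The 5 windows that held a match are shown, since together they carry the motif of each loop. They run 5′ to 3′ on the strand of the gene, and the matched letters are in capitals. They are Arntl at chr1:176766078-176766377 (plus strand), Per2 at chr9:99496944-99497243 (minus strand), the first Nr1d1 promoter at chr10:84231763-84232062 (minus strand), the second at chr10:84229405-84229704 (minus strand) and Tef at chr7:115206577-115206876 (plus strand).
Arntl: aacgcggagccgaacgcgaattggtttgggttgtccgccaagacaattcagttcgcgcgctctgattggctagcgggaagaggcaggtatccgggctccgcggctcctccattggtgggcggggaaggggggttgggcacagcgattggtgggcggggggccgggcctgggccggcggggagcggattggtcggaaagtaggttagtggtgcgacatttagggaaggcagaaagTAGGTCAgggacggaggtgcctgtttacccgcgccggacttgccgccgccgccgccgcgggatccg
Per2: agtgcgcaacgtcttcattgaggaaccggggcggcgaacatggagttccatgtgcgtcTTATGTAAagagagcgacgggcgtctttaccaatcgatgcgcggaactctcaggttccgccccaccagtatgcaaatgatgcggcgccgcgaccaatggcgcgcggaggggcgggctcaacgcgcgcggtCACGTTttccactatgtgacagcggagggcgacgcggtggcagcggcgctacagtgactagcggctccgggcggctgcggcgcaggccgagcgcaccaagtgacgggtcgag
Nr1d1, first: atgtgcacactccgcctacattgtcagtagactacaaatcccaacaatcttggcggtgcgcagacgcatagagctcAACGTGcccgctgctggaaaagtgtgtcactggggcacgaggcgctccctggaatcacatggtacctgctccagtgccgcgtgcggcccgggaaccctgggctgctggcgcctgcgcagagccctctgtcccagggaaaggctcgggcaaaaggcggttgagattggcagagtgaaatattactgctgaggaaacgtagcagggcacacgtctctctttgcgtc
Nr1d1, second: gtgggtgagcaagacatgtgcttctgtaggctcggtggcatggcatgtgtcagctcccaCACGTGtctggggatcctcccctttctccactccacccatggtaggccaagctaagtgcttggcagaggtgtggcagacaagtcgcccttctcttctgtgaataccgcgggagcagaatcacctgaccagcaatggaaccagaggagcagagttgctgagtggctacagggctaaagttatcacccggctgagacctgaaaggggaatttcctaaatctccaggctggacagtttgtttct
Tef: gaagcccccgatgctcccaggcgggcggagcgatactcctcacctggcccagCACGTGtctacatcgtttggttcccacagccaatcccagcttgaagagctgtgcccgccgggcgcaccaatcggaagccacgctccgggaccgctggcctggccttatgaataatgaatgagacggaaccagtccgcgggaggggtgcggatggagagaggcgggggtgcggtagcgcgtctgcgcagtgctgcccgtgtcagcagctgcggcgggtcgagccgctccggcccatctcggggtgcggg

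In Arntl the capitals mark TAGGTCA at position -16 from the start of transcription, an element found in 6.6% of 33469 rat promoters of this length. In Per2 they mark the D-box TTATGTAA at -192, a motif in 1.01% of promoters, and the E-prime box at -62, in 4.83%. The first Nr1d1 window holds the E-prime box on the opposite strand, printed there as its reverse complement, at -174. The second holds the E-box CACGTG at -191, as the Tef window does at -198, and this motif was in 6.42% of promoters. The windows of Npas2, Per1, Per3, Nr1d2 and Dbp held none of these letters. A match describes the sequence alone, and binding was not measured in these data.

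Levels are given in counts scaled to the size of the library (CPM), with TMM factors between libraries, which are not divided by transcript length, so that levels are compared between rats and never between genes. Differences between groups are log2 fold changes from 1 limma-voom fit of all 18 rats, with adjusted p under 0.05 over the 12904 genes as the threshold. The genes were read from whole liver, where fewer cells of a type and less RNA per cell cannot be told apart.

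In every group some clock genes, Arntl and Dbp among them, ranged widely from rat to rat. Others ranged less, as Per1 did, whose highest value was 2.03 to 2.48 times its lowest within a group. Of the 10 members, 1 passed the test in any comparison. In NASH against control rats 0 of the 10 members passed the threshold, while 3.12% of all tested genes did (1.58% higher and 1.54% lower). Per1, Nr1d1 and Nr1d2 had an unadjusted p under 0.05 there. The tools edgeR and DESeq2 called 0 and 2 of the 10, and 652 and 1228 of the 12904 genes. In NASH-CH against control rats 1 member, Per1, passed and was higher, while 17.0% of all tested genes passed, 8.38% higher and 8.60% lower. Per1, Per3, Cry1, Nr1d1 and Nr1d2 had an unadjusted p under 0.05 in that comparison, where edgeR called 2 members and DESeq2 called 4. Of the 12904 genes, edgeR called 2449 and DESeq2 called 2841 there. Between NASH-CH and NASH rats 0 of 10 members passed, 0 had an unadjusted p under 0.05, and edgeR and DESeq2 called 0 each, while 4.20% of all tested genes passed (1.81% higher and 2.39% lower). Over the 12904 genes edgeR called 617 and DESeq2 called 949 between the models.

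The median log2 fold change of the 10 members was 0.79 in NASH and 0.9 in NASH-CH against the same control rats, with 7 members above 0 and 3 (Arntl, Npas2 and Cry1) below 0 in each. Over all tested genes the median was 0.01 in each comparison. Between NASH-CH and NASH rats the median of the members was -0.06, with 5 members above and 5 below 0. No member separated any pair of groups without overlap (0 of 10 in each comparison), where 3.16% of all tested genes did so for NASH and control, 7.11% for NASH-CH and control and 3.46% for NASH-CH and NASH.

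**Figure D1:**
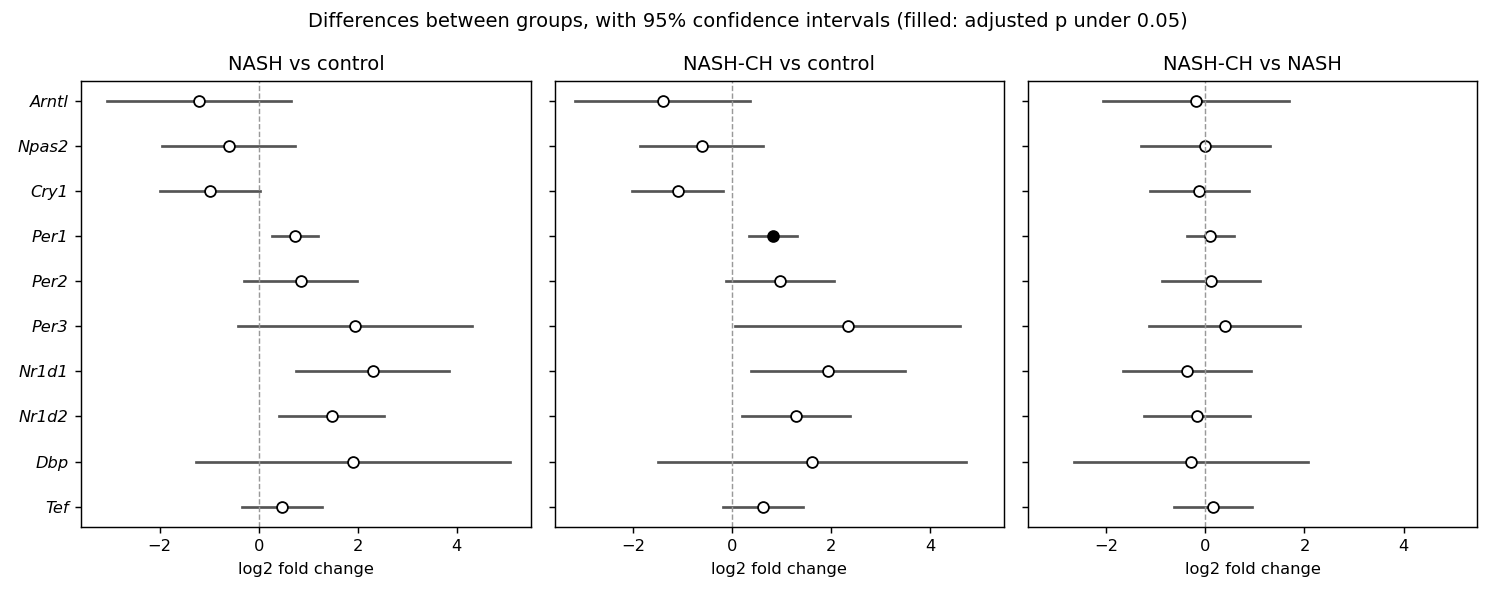
Log2 fold change of each clock gene (x axis) in the 3 comparisons, with its 95% confidence interval from limma-voom; a filled point marks an adjusted p under 0.05. Per1 in NASH-CH against control rats is the only filled point, and the intervals of Dbp, Per3 and Arntl are among the widest.

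Arntl (ENSRNOG00000014448) encodes BMAL1, the one activator without which the loop stops. In control livers Arntl ran from 5.38 to 31.9 CPM with a median of 27.6. In NASH livers it ran from 1.29 to 26 CPM with a median of 8.49, and in NASH-CH livers from 1.24 to 24.9 CPM with a median of 13. Control rats 1, 3, 4 and 5 had 25.8, 31.9, 29.3 and 29.6 CPM, and control rats 2 and 6 had 8.91 and 5.38 CPM. NASH-CH rats fell into 2 sets as well, with 23.9, 24.9 and 24.9 CPM in rats 1, 3 and 5 and 1.72, 1.24 and 2.19 CPM in rats 2, 4 and 6. NASH rats were spread between these levels, at 26, 1.29, 10.6, 24.7, 3.83 and 6.41 CPM in rats 1 to 6. The highest Arntl was thus 5.94 times the lowest among control, 20.3 times among NASH and 20 times among NASH-CH rats.

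The groups overlapped for Arntl. Its log2 fold change was -1.21 (95% confidence interval -3.07 to 0.66, adjusted p = 0.46) in NASH and -1.4 (-3.17 to 0.37, adjusted p = 0.269) in NASH-CH against control rats, and -0.19 (-2.07 to 1.69, adjusted p = 0.945) between the models.

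Npas2 (ENSRNOG00000013408) encodes the partner that can take the place of CLOCK beside BMAL1. It ran from 3.69 to 10.9 CPM in control (median 8.62), from 1.16 to 11.2 in NASH (median 4.87) and from 1.27 to 13 in NASH-CH livers (median 5.88). The rats low in Arntl were also the rats low in Npas2, as in NASH-CH rats 2, 4 and 6 with 1.44, 1.27 and 3.29 CPM, beside 8.47, 12.5 and 13 CPM in rats 1, 3 and 5. Npas2 had a log2 fold change of -0.61 in both models (SE 0.64 in NASH and 0.59 in NASH-CH), with adjusted p of 0.623 and 0.502.

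**Figure D2:**
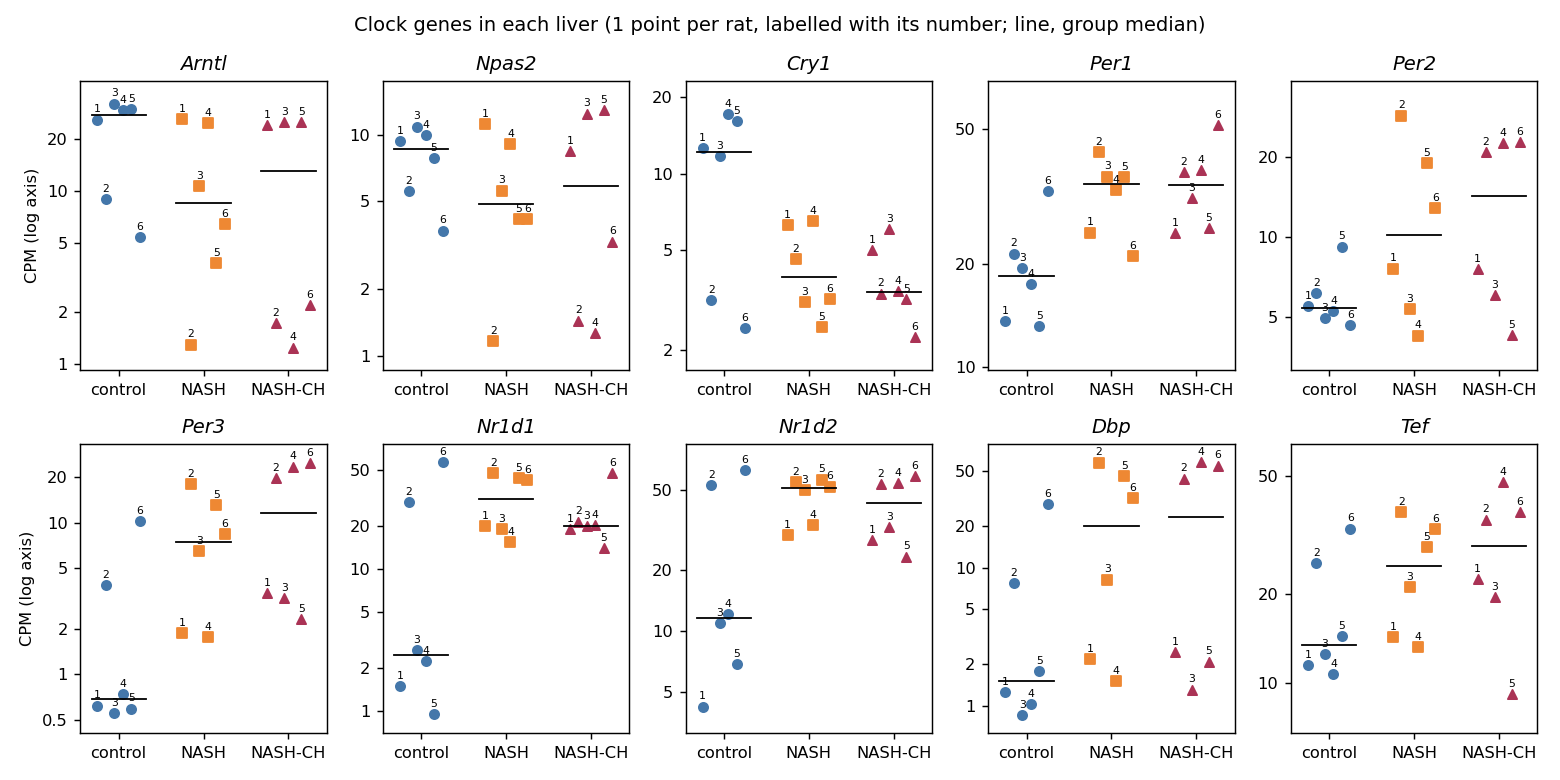
CPM of each clock gene on a log axis in control, NASH and NASH-CH livers, with 1 point per rat labelled by its number and a line at the group median. For Arntl, the NASH-CH points sit at 23.9 to 24.9 or at 1.24 to 2.19 CPM with no rat between, and the rats low in Arntl are high in Dbp.

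Per1 (ENSRNOG00000007387) encodes a repressor that is also switched on directly by hormonal and stress signals. Per1 ran from 13.2 to 32.8 CPM in control rats with a median of 18.5. It ran from 21.1 to 42.8 CPM in NASH rats (median 34.6) and from 24.7 to 51.2 CPM in NASH-CH rats (median 34.3). Of the NASH rats 4 lay above every control rat, and of the NASH-CH rats 3 did, while control rat 6 at 32.8 CPM lay above the next control rat at 21.5 CPM. The highest Per1 value was 2.48 times the lowest in control, 2.03 times in NASH and 2.08 times in NASH-CH livers, a smaller spread than that of Arntl, Per3 or Dbp in each group.

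Per1 rose in NASH-CH against control rats from 19.7 ± 7.19 to 34.6 ± 9.86 CPM (mean ± SD, n = 6 each), a log2 fold change of 0.83 (SE 0.23, 95% confidence interval 0.35 to 1.31), which is 1.78-fold, with an adjusted p of 0.0194. In NASH rats Per1 stood at 32.3 ± 8.02 CPM, a log2 fold change of 0.73 (0.26 to 1.2) against control with an adjusted p of 0.0747, and NASH-CH and NASH rats differed by 0.1 (-0.38 to 0.57, adjusted p = 0.877). The call in NASH-CH rats was made in 17 of 18 fits that left out 1 rat and was lost without control rat 5, at an adjusted p of 0.0513. It was also lost with the Arntl level as a covariate, where the log2 fold change was 0.57 with an adjusted p of 0.0554.

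Per2 (ENSRNOG00000020254) and Per3 (ENSRNOG00000018413) encode the other repressors of the Per family. Per2 ran from 4.66 to 9.17 CPM in control rats (median 5.37), from 4.24 to 28.6 in NASH rats (median 10.2) and from 4.27 to 22.7 in NASH-CH rats (median 14.2). In each model 3 rats lay above every control rat and 1 lay below every control rat. NASH rats 2, 5 and 6 had 28.6, 19 and 12.8 CPM and NASH-CH rats 2, 4 and 6 had 20.9, 22.5 and 22.7 CPM, while control rats 2 and 6, which were low in Arntl, had 6.13 and 4.66 CPM. Per2 differed from control by 0.85 on the log2 scale in NASH (-0.29 to 1.98, adjusted p = 0.383) and by 0.96 in NASH-CH (-0.13 to 2.06, adjusted p = 0.217).

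Per3 was lowest in control rats 1, 3, 4 and 5, which had 0.623, 0.555, 0.744 and 0.595 CPM, with 3.89 and 10.2 CPM in control rats 2 and 6. The control median was 0.684 CPM. NASH rats ran from 1.76 to 17.9 CPM (median 7.45) and NASH-CH rats from 2.31 to 24.6 CPM (median 11.6), so that every treated rat lay above the control median but no 2 groups separated. Its log2 fold change was 1.95 (-0.42 to 4.31, adjusted p = 0.33) in NASH and 2.33 (0.06 to 4.6, adjusted p = 0.147) in NASH-CH rats.

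Cry1 (ENSRNOG00000006622) encodes a cryptochrome that closes the negative limb together with the PER proteins. Cry1 was at 12.6, 11.7, 17.2 and 16.1 CPM in control rats 1, 3, 4 and 5 and at 3.16 and 2.44 CPM in control rats 2 and 6. NASH rats lay between 2.47 and 6.5 CPM (median 3.89) and NASH-CH rats between 2.25 and 6.02 CPM (median 3.39), against a control median of 12.1. The highest treated rat, at 6.5 CPM, lay below 4 of the 6 control rats, and the groups overlapped through control rats 2 and 6. Cry1 had a log2 fold change of -0.98 (-1.99 to 0.02, adjusted p = 0.243) in NASH and -1.1 (-2.02 to -0.18, adjusted p = 0.0923) in NASH-CH rats, neither past the threshold in the limma-voom fit. Of 11 alternative settings, 1 called it in NASH (DESeq2, adjusted p = 0.0226). In NASH-CH rats 4 of 11 called it, namely edgeR, DESeq2, sample quality weights and a replicate block. Over the 11 settings the adjusted p for NASH-CH went from 0.00285 to 0.165.

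Nr1d1 (ENSRNOG00000009329) and Nr1d2 (ENSRNOG00000046912) encode the receptors that repress Arntl. Nr1d1 was at 1.5, 2.68, 2.23 and 0.942 CPM in control rats 1, 3, 4 and 5 and at 29.4 and 56.3 CPM in control rats 2 and 6, so that the highest control value was 59.8 times the lowest. NASH rats ran from 15.4 to 47.2 CPM (median 31.1) and NASH-CH rats from 13.9 to 47 CPM (median 20.2), spans of 3.07 and 3.38 times. The groups overlapped, since control rat 6 lay above every treated rat. Nr1d1 had a log2 fold change of 2.3 (SE 0.74, 0.76 to 3.84, adjusted p = 0.0864) in NASH and 1.94 (SE 0.74, 0.39 to 3.49, adjusted p = 0.0793) in NASH-CH rats.

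Nr1d2 split the control rats in the same way. It ran from 4.24 to 62.6 CPM in control rats (median 11.6), from 29.9 to 56.2 in NASH rats (median 50.9) and from 23.4 to 58.4 in NASH-CH rats (median 43). Control rats 2 and 6 had 52.8 and 62.6 CPM and the other 4 had 12.2 CPM or less. Its log2 fold change was 1.47 (0.4 to 2.53, adjusted p = 0.108) in NASH and 1.3 (0.2 to 2.39, adjusted p = 0.0963) in NASH-CH rats. Over the alternative settings it ran from 0.88 to 1.74 in NASH and from 0.69 to 1.58 in NASH-CH rats.

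Nr1d1 lies across the Thra gene, which encodes thyroid hormone receptor alpha on the opposite strand, and the strand setting of the counting is not given in the sources used here. In control livers Thra was at 6.3 ± 0.88 CPM (mean ± SD, n = 6 in each group), with 6.95 ± 0.791 CPM in NASH livers and 6.1 ± 0.955 CPM in NASH-CH livers. Its log2 fold change was 0.14 (adjusted p = 0.583) in NASH and -0.06 (adjusted p = 0.789) in NASH-CH rats, and whether reads of Thra entered the Nr1d1 count was not tested. RefSeq also places unnamed loci across Npas2, Per2 and Cry1, which were not matched to a row of the tables and have no value here.

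Dbp (ENSRNOG00000021027) and Tef (ENSRNOG00000019383) encode the activators that bind D-boxes. Dbp ran from 0.858 to 29 CPM in control rats (median 1.52), from 1.51 to 57.7 in NASH rats (median 20) and from 1.31 to 58.5 in NASH-CH rats (median 23.3), which made the highest value 33.9, 38.2 and 44.7 times the lowest. NASH rats 2, 5 and 6 had 57.7, 46.3 and 31.9 CPM and NASH-CH rats 2, 4 and 6 had 44.2, 58.5 and 54.9 CPM, all above every control rat. NASH rats 1 and 4 had 2.18 and 1.51 CPM and NASH-CH rats 1, 3 and 5 had 2.44, 1.31 and 2.09 CPM, within the control range.

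No difference of Dbp between groups passed the test. It came to a log2 fold change of 1.9 (-1.27 to 5.08, adjusted p = 0.501) in NASH, 1.61 (-1.5 to 4.73, adjusted p = 0.48) in NASH-CH and -0.29 (-2.65 to 2.07, adjusted p = 0.933) between the models. Tef ran from 10.7 to 33.2 CPM in control rats (median 13.4), from 13.2 to 37.7 in NASH rats (median 24.9) and from 9.13 to 47.6 in NASH-CH rats (median 29). Its log2 fold change was 0.47 (-0.33 to 1.28, adjusted p = 0.51) in NASH and 0.63 (-0.18 to 1.44, adjusted p = 0.277) in NASH-CH rats.

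**Figure D3:**
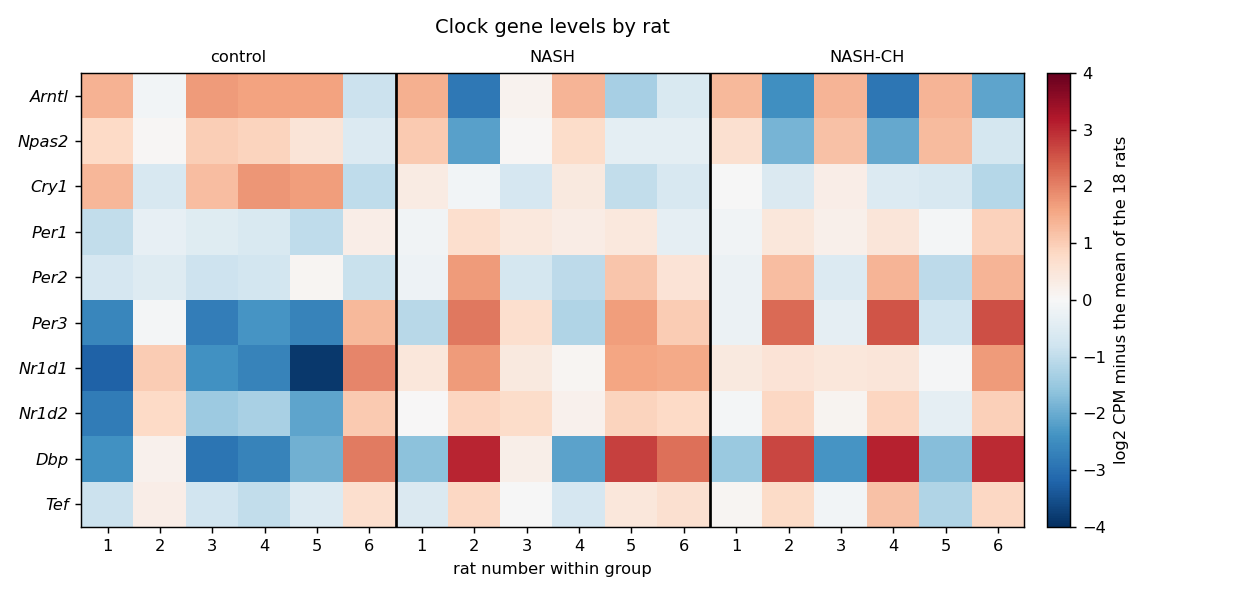
Log2 CPM of each clock gene minus its mean over the 18 rats, with 1 column per rat in the order of its number within each group (color scale from -4 to 4). Columns with red Dbp and Per3 have blue or pale Arntl and Npas2, and such columns stand in all 3 groups.

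The genes moved together from rat to rat. After the mean of each group was removed, Arntl and Npas2 correlated with Pearson's r = 0.97 over the 18 rats, Per3 and Dbp with 0.97, and Nr1d1 and Nr1d2 with 0.93. Per3 and Tef gave 0.93, and Dbp and Tef gave 0.91. Arntl and Npas2 ran opposite to the D-box factors and Per3, with -0.96 for Arntl and Dbp, -0.94 for Arntl and Per3, -0.9 for Npas2 and Dbp, and -0.89 for Arntl and Tef. Cry1 had a positive r with both activators, 0.59 with Arntl and 0.44 with Npas2, and ran opposite to the Rev-erb genes, at -0.88 with Nr1d1 and -0.85 with Nr1d2. Per2 was nearly unrelated to Nr1d1 (0.19) and to Cry1 (-0.18), and its r with Per1 was 0.32. The values of a rat come from 1 library, and these coefficients are descriptions without a test.

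**Figure D4:**
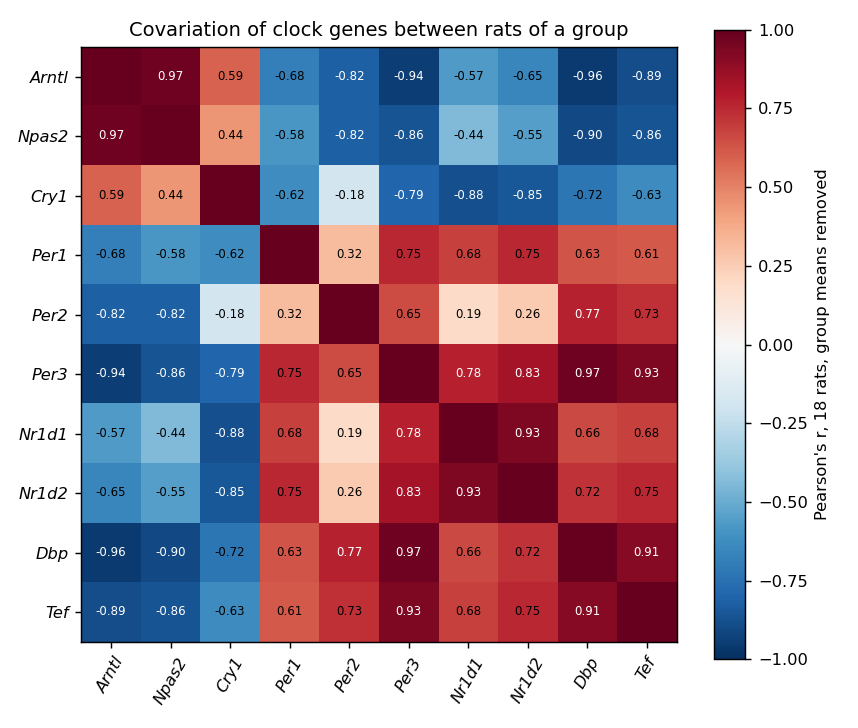
Pearson's r of log2 CPM between each pair of clock genes over the 18 rats with group means removed, written in each cell. Arntl and Npas2 form a block at 0.97, and Per3, Dbp and Tef a block at 0.91 to 0.97 with the opposite sign to Arntl.

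Of these relations, 4 pairs were tested within each group, in a family of 12 coefficients (4 pairs in 3 groups) with two-sided exact permutation tests. In NASH rats, some of which had intermediate Arntl levels, Arntl correlated with Npas2 at r = 0.97 (exact permutation p = 0.00278, adjusted p = 0.0111, n = 6), and at rho = 0.94 (exact permutation p = 0.0167, adjusted p = 0.05). Arntl and Dbp gave r = -0.94 (exact permutation p = 0.00556, adjusted p = 0.0167) and rho = -0.94 (exact permutation p = 0.0167, adjusted p = 0.05). Dbp and Per3 gave r = 0.98 (exact permutation p = 0.00139, adjusted p = 0.00833) and rho = 1 (exact permutation p = 0.00278, adjusted p = 0.0167). Arntl and Nr1d1 gave r = -0.88 (exact permutation p = 0.025, adjusted p = 0.0333) and rho = -0.83 (exact permutation p = 0.0583, adjusted p = 0.0778). Without the 2 NASH rats farthest from the median on the x axis, these r were 0.96, -0.99, 0.89 and -0.93 in the same order.

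In control and NASH-CH rats Arntl fell into 2 separate sets of levels, each of fewer than 6 rats, so that a coefficient there rests on the difference between the sets and the relation within a set cannot be tested. In control rats r was -0.96 for Arntl and Nr1d1, 0.96 for Arntl and Npas2, -0.98 for Arntl and Dbp and 0.98 for Dbp and Per3. Without the 2 farthest control rats these values were 0.42, 0.31, -0.37 and -0.06, so that the control relations rested on those rats. In NASH-CH rats Arntl and Nr1d1 gave r = -0.53 (exact permutation p = 0.362, adjusted p = 0.362), which did not pass. The other NASH-CH pairs gave 0.97 for Arntl and Npas2, -0.99 for Arntl and Dbp and 0.99 for Dbp and Per3. The r over 18 rats given above pools these groups.

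One index of the balance between the loops is the log2 CPM of Dbp minus that of Arntl in the same rat, whose zero has no meaning since the transcripts differ in length. The index ran from -5.13 to 2.42 in control rats (median -4.16), from -3.98 to 5.43 in NASH rats (median 0.97) and from -4.19 to 5.49 in NASH-CH rats (median 0.68). The lowest values lay close together in the 3 groups, and the highest control value lay below the highest of either model. Nr1d1 minus Npas2 ran from -2.98 to 3.91 in control (median -2.07), from 0.75 to 5.28 in NASH (median 2.55) and from 0.1 to 3.93 in NASH-CH rats (median 2.49). On that index no rat of either model was below 0.1, and the control median was. Neither index was tested.

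Among 11799 tested genes with a symbol, the 5 whose levels were most like Arntl from rat to rat (r with group means removed, 18 rats) were Npas2 (0.97), Ptpa (0.91), Slc6a6 (0.9), Prkci (0.88) and Aqp8 (0.87). The 5 most opposite were Ciart (-0.97), a repressor of the CLOCK and BMAL1 pair, Dbp (-0.96), Per3 (-0.94), Hsd17b2 (-0.92), which encodes an enzyme that inactivates sex steroids, and Tef (-0.89). The genes most like Dbp were Per3 (0.97), Hsd17b2 (0.96), Ciart (0.93), Epm2a (0.92), which encodes the glycogen phosphatase laforin, and Tef (0.91). The most opposite to Dbp were Arntl (-0.96), Lgalsl (-0.92), Npas2 (-0.9), Cdkn1a (-0.89), which encodes an inhibitor of the cell cycle, and Rnf8 (-0.89). Of the core clock genes outside the 10 members, Clock had r = 0.85 with Arntl, rank 12 of 12903 genes, and Cry2 had -0.87, rank 6 from the lowest. Clock and Cry2 were looked at after their values had been seen.

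The slope of each member on Arntl puts these relations on 1 scale, as the change in log2 CPM of the member per unit of log2 CPM of Arntl. These fits were chosen after the data had been seen. With 1 slope for all 18 rats and the groups in the model, 1.02% of 12903 genes had a slope past the threshold, and 5 of the other 9 members did. Npas2 rose with Arntl at 0.64 per unit (SE 0.05, adjusted p = 7.97e-07). Dbp fell by 1.28 (SE 0.1, adjusted p = 1.36e-06), Per3 fell by 0.8 (SE 0.07, adjusted p = 3.89e-06), Per2 fell by 0.47 (SE 0.07, adjusted p = 0.00333) and Tef fell by 0.39 (SE 0.05, adjusted p = 0.00112). Cry1 (0.33, adjusted p = 0.162), Nr1d1 (-0.43, adjusted p = 0.256), Nr1d2 (-0.39, adjusted p = 0.113) and Per1 (-0.17, adjusted p = 0.109) did not pass.

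With the Arntl level of each rat held in the model, 0 of the other 9 members passed in any of the 3 comparisons, where 1.79%, 12.9% and 4.49% of genes did. For each gene these fits gave the 3 groups 1 common slope on Arntl. At an unadjusted p under 0.05 stood Per1, Nr1d1 and Nr1d2 in NASH and Per1, Per3 and Cry1 in NASH-CH against control rats, and no member between the models. The log2 fold change of Dbp moved from 1.9 to 0.29 in NASH and from 1.61 to -0.44 in NASH-CH against control rats. Nr1d1 moved from 2.3 to 1.44 (0.04 to 2.84, adjusted p = 0.25) in NASH and from 1.94 to 0.99 (-0.44 to 2.42, adjusted p = 0.351) in NASH-CH rats. These values rest on the common slope. In the rats with 23.9 to 31.9 CPM of Arntl, Nr1d1 was at 0.942 to 2.68 CPM in control rats. It was at 15.4 and 20.1 CPM in NASH and at 13.9 to 20.1 CPM in NASH-CH rats. Cry1 in the same rats was at 11.7 to 17.2, 6.24 and 6.5, and 3.19 to 6.02 CPM. No test was made on those rats alone.

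The slope on Arntl was then allowed to differ between groups. For Nr1d1 it was -2.13 per unit in the control group, -0.39 in NASH and -0.14 in NASH-CH rats. The slope in NASH-CH rats exceeded that in control rats by 1.98 (SE 0.26, adjusted p = 0.0138), a difference that 0.0233% of genes (3 of 12903) passed. In NASH rats it exceeded that in control rats by 1.74 (SE 0.27, adjusted p = 0.0518), where 0.00775% of genes (1 of 12903) passed, and it passed under other scalings, with quality weights and with thinned counts, but in only 5 of 18 fits that left out 1 rat (adjusted p up to 0.485). In single rats, Nr1d1 lay between 13.9 and 21.5 CPM in NASH-CH rats 1 to 5 while Arntl in those rats went from 1.24 to 24.9 CPM, and NASH-CH rat 6 had 47 CPM of Nr1d1 at 2.19 CPM of Arntl. The control slope rests on rats 2 and 6, since the other 4 control rats lie between 25.8 and 31.9 CPM of Arntl. Leaving out 1 rat at a time gave differences of 1.86 to 2.24 for NASH-CH, past the threshold in 17 of 18 fits, with an adjusted p of 0.206 without control rat 6.

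Nr1d2 had slopes of -1.3, -0.21 and -0.25 in control, NASH and NASH-CH rats, and its differences from control were 1.09 (adjusted p = 0.0646) and 1.05 (adjusted p = 0.0723). Cry1 had slopes of 1.12, 0.22 and 0.15, with adjusted p of 0.179 and 0.104 for the differences from control. Dbp had -1.87, -1.17 and -1.23, and Per3 had -1.63, -0.72 and -0.76. The slope of Per2 was 0.1 in control rats, -0.61 in NASH rats (adjusted p of the difference 0.188) and -0.5 in NASH-CH rats (adjusted p = 0.219). Between NASH-CH and NASH rats the slopes of the 9 members differed by -0.07 to 0.24, each with an adjusted p of 1, where 0% of genes passed.

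**Figure D5:**
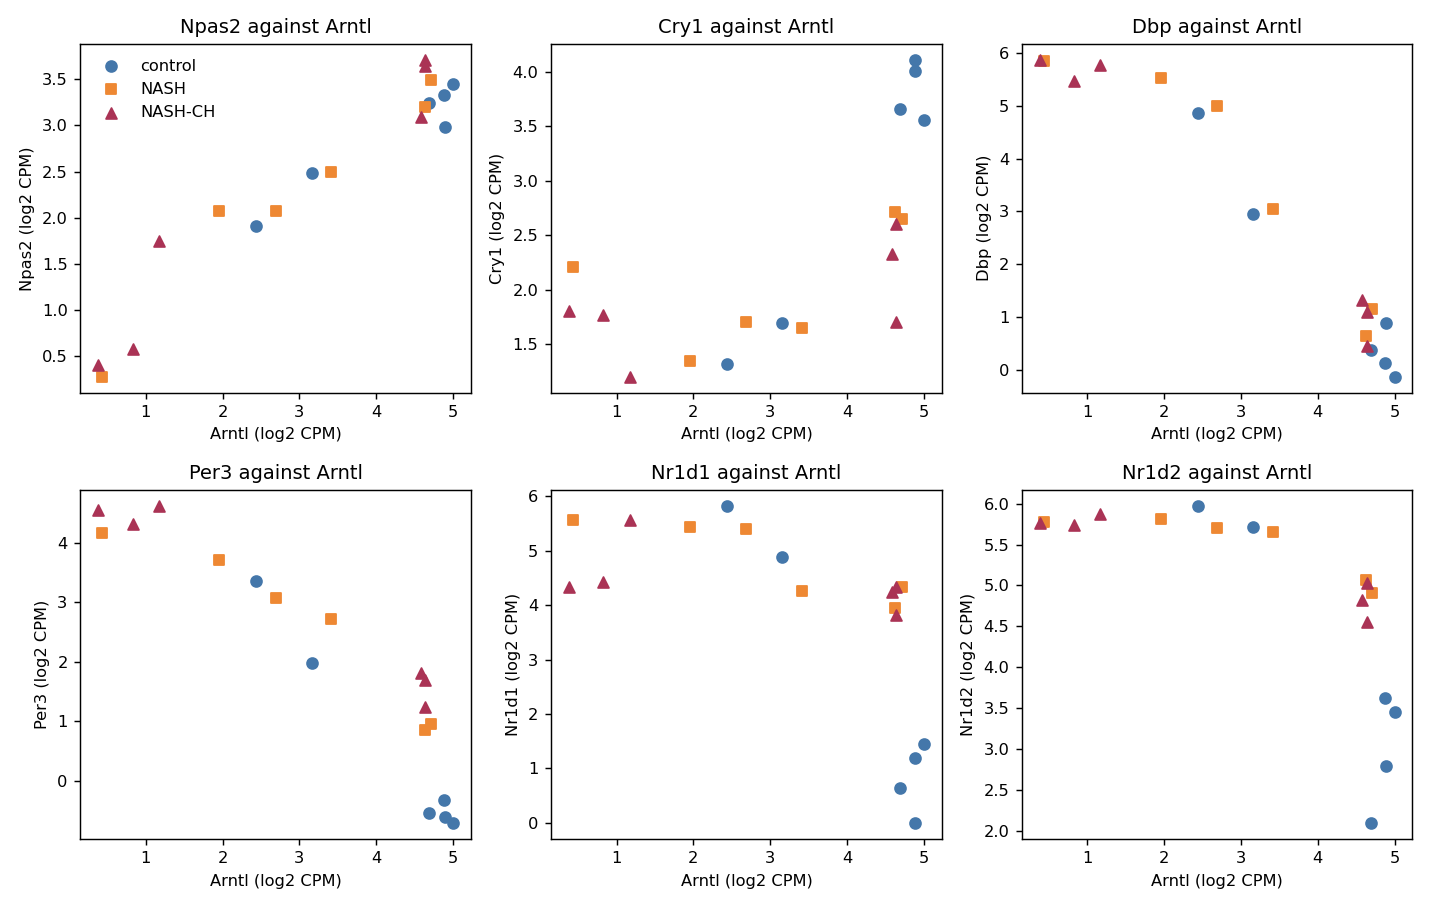
Log2 CPM of 6 clock genes against log2 CPM of Arntl, with 1 point per rat and the 3 groups by color and shape. Npas2 and Dbp follow a single course in the 3 groups. At log2 CPM of Arntl over 4 the control points lie lower than those of both models for Nr1d1, Nr1d2 and Per3 and higher for Cry1.

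Other genes of the clock were read from a list of 20, of which 19 were tested. In NASH-CH against control rats 1 gene of the list was higher and 1 lower with limma, and edgeR and DESeq2 called 3 each. Over all tested genes edgeR called 2449 and DESeq2 called 2841 there. Of all tested genes 17.0% passed in that limma comparison, a larger share than in the list. Csnk1e, the casein kinase that marks PER proteins for degradation, rose from 7.71 ± 2.29 to 10.7 ± 1.2 CPM (mean ± SD, n = 6 each, log2 fold change 0.49, SE 0.15, adjusted p = 0.0316), a call kept in 12 of 18 fits that left out 1 rat and lost without control rats 1, 3, 4 or 5 or NASH-CH rats 2 or 3 (adjusted p up to 0.0848). It was also lost with the 2 groups alone, thinned counts or Arntl as a covariate (adjusted p up to 0.0718). Arntl2, a paralog of Arntl, fell from 1.64 ± 0.49 to 0.653 ± 0.266 CPM (log2 fold change -1.32, SE 0.28, adjusted p = 0.00369), with all 6 NASH-CH rats below every control rat and the call made in all 18 fits.

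Arntl2 also fell between NASH and NASH-CH rats, by 1.27 (SE 0.27, adjusted p = 0.0102), the only gene of this list to pass in that comparison, a call lost with thinned counts (adjusted p = 0.0776). Of all tested genes 4.20% passed between the models. The medians of the list were 0, 0.06 and 0.01 in the 3 comparisons. Clock stood at 51.2 ± 6.74 CPM in the control group, at 52.2 ± 14.1 CPM in NASH and at 47.5 ± 15.3 CPM in NASH-CH rats, with log2 fold changes of 0 and -0.17 against control (adjusted p of 1 and 0.596). Ciart, the gene most opposite to Arntl, was at 0.722 ± 0.773, 2.3 ± 3.29 and 2.74 ± 3.28 CPM, and its log2 fold changes of 1.11 and 0.96 against control had adjusted p of 0.675 and 0.628.

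A list of 12 hepatic genes downstream of the clock had 11 tested genes, and Elovl3 was below the filter. None passed in NASH against control rats (limma, 0 of 11), 0 with edgeR and 0 with DESeq2, although 5 had an unadjusted p under 0.05. In NASH-CH rats 1 gene passed, against 1 with edgeR and 4 with DESeq2. Over all tested genes these 2 tools called 2449 and 2841 there. Nr1i3, which encodes the xenobiotic receptor CAR, through which phenobarbital acts, fell from 12.3 ± 4.68 to 6.54 ± 2.38 CPM (log2 fold change -0.87, SE 0.26, adjusted p = 0.0289), a call kept in 13 of 18 fits with 1 rat left out and lost without control rats 1, 5 or 6 or NASH-CH rats 3 or 5 (adjusted p up to 0.0675). That call was also lost with library size as the only scaling and with the 2 groups alone (adjusted p up to 0.1). It was also lower in NASH-CH than in NASH rats, where it was at 18.2 ± 4.82 CPM (log2 fold change -1.51, SE 0.25, adjusted p = 0.000901), with no overlap. Of all tested genes 3.12% passed in NASH and 17.0% in NASH-CH against control rats, and 4.20% between the models. The medians of the list were 0.33, 0.39 and -0.02.

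A list of 13 genes that answer to glucocorticoids, fasting or temperature, signals that set peripheral clocks, had 12 tested genes, with Hsp90aa1 below the filter. Of these 1 rose in NASH, Hsph1, a heat shock protein of the chaperone class, from 35.4 ± 7.88 to 67.2 ± 22.6 CPM (log2 fold change 0.91, SE 0.2, adjusted p = 0.0201), with every NASH rat above every control rat, a call lost without control rat 3 (adjusted p = 0.0535). It was lower again in NASH-CH than in NASH rats, at 38.2 ± 7.55 CPM (log2 fold change -0.79, SE 0.2, adjusted p = 0.0321), a call lost without NASH rats 1, 2 or 4 or NASH-CH rats 2, 3 or 4 (adjusted p up to 0.0784) and with library size only or the 2 groups alone (adjusted p up to 0.0707). In both of these comparisons edgeR called 1 gene of the list and DESeq2 called 2. Over all tested genes the 2 tools called 652 and 1228 in NASH against control rats, and 617 and 949 between the models. No gene of this list passed in NASH-CH against control rats (limma, 0 of 12, with 0 at an unadjusted p under 0.05 and 0 by edgeR or DESeq2). Over all tested genes the shares called were 3.12%, 17.0% and 4.20% for NASH and control, NASH-CH and control, and the 2 models. The medians were 0.31, 0.31 and 0.04.

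The libraries held 19498534 to 27174015 expected counts in control, 20827770 to 29491947 in NASH and 44680344 to 60117822 in NASH-CH rats, so that NASH-CH libraries were deeper than all others. Marker genes of liver cells also differed between groups. Summed hepatocyte markers ran from 122000 to 181000 CPM in control, 83100 to 142000 in NASH and 80100 to 132000 in NASH-CH rats, with 1 of 6 lower in NASH and 3 of 6 lower in NASH-CH rats. Summed macrophage markers ran from 198 to 375, 155 to 229 and 132 to 197 CPM, with 1 and 4 of 6 lower, and stellate cell markers from 270 to 364, 219 to 298 and 269 to 409 CPM, with 1 of 6 lower in NASH rats, 2 higher and 1 lower in NASH-CH rats and 3 higher in NASH-CH than in NASH rats. Of 4 endothelial markers 1 was higher in NASH-CH than in control rats. Beside these marker counts, 3.12% of all tested genes passed in NASH and 17.0% in NASH-CH against control rats, and 4.20% between the models. T cell markers summed to at most 0.595, 0.656 and 2.17 CPM. With counts thinned to the smallest library, Per1 was still called in NASH-CH against control rats, and 0 members passed in NASH against control rats. The part of these cell markers in the clock gene levels was not tested.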

How the data were processed

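Liver RNA of 18 rats was sequenced, 1 library per rat, with 6 rats in each of 3 groups named in the sample labels. The authors trimmed reads with Trim Galore, aligned them to Rnor_6.0 with STAR and used RSEM with the genes of Ensembl release 95, and the deposited table of each rat holds expected counts, normalized for neither library size nor length. Versions of these tools are not given in the sources used here, and neither is the strand setting. The labels name a stranded mRNA kit.

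Expected counts were rounded, normalized by TMM (edgeR 4.0.16) and tested by limma-voom (limma 3.58.1, R 4.3.3), as in the study's methods. The filter (filterByExpr) and the use of 1 fit for all rats were chosen here. Adjustment followed Benjamini and Hochberg, with 0.05 as threshold. Log2 CPM used a prior count of 2. The members, the gene lists and the tests were chosen with earlier results of these data known. The text names all members, the listed genes that passed the threshold (at most 6 per list and comparison), the 5 genes most like and most opposite to Arntl and to Dbp, and Thra, which overlaps Nr1d1 on the other strand. Lengths of transcripts were not used. The result for 1 of the other clock genes is not reported here.

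Alternatives were the quasi-likelihood test of edgeR, DESeq2 1.42.0, other scalings and filters, 2 groups alone, sample quality weights, a replicate block, thinned counts and each rat left out. Arntl as a covariate and slopes on Arntl came after the data had been seen. The fits by limma, edgeR and DESeq2, and the slopes, were tried on simulated data. Every pair of rats of 1 group differed by more than counting error (chi-square over its degrees of freedom at least 30.3). Promoters were taken from RefSeq (GRCr8), another build than that of the counts.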

Additional observations from a re-analysis of the deposited data

Results flagged for a closer look

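Within-group outliers were looked for in each member and group, with Dixon's test at the 95% level, and 4 of 30 combinations had a rat apart from the others. Chance gives about 1 in 20 for independent values with a normal spread. The test used CPM without logs, and the members moved together, so that rate is no fair reference here. Per2 was at 9.17 CPM in control rat 5, where the nearest control rat had 6.13. Per3 was at 10.2 CPM in control rat 6, where the nearest had 3.89. Dbp was at 29 CPM in the same rat, where the nearest control rat had 7.71. Nr1d1 was at 47 CPM in NASH-CH rat 6, where the nearest had 21.5.

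The slope of Nr1d1 on Arntl differed between NASH-CH and control rats by 1.98 on the log2 scale, by the test of the difference itself. Under other scalings, sample quality weights and thinned counts the difference was 1.99 to 2.44 with adjusted p of 0.00127 to 0.0201. For NASH against control it was 1.71 to 2.21 with adjusted p of 0.0122 to 0.049 under the same settings, and with each rat left out it was 1.61 to 2.00, past the threshold in 5 of 18 fits with adjusted p up to 0.485. For NASH-CH, fits that left out 1 rat gave 1.86 to 2.24, past the threshold in 17 of 18. That call was lost without control rat 6 (adjusted p = 0.206). The other settings all kept control rats 2 and 6, on which the control slope rests. Arntl ran from 5.38 to 31.9 CPM in control and from 1.24 to 24.9 CPM in NASH-CH rats, so the slopes cover unlike ranges.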

How the results depend on the processing

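How many members passed depended on the method. In NASH against control rats the count of 0 became 2 with DESeq2, 2 with library size as the only scaling and 3 with sample quality weights. All calls there numbered 1228, 865 and 1509, against 403 in the main fit. In NASH-CH against control rats the count of 1 became 2 with edgeR, 4 with DESeq2, 3 with library size only, 4 with quality weights and 0 with Arntl as a covariate. All calls in these settings numbered 2449, 2841, 3270, 2410 and 1662 in the same order, against 2192 in the main fit. Leaving out 1 rat gave 0 to 3 members in NASH (3 without control rat 6, 2 without control rat 2 and 1 without NASH rat 6), 0 to 4 in NASH-CH (4 without control rat 2 or control rat 6, 0 without control rat 5) and 0 in every fit of NASH-CH against NASH. Among other clock genes the NASH count was 0 with the 2 groups alone, the NASH-CH count of 2 was 4 without a filter, 1 with the 2 groups alone and 1 with thinned counts, and the count between the models was 0 with thinned counts. Leaving out 1 rat gave 0 to 1, 1 to 3 and 1 to 2 of these genes. The cause was not tested. Per1 in NASH-CH had log2 fold changes of 0.57 to 1.09 over the alternatives, called in 10 of 11, the exception being Arntl as a covariate.

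The replicate numbers were not used as pairs in the main fit. Whether rats with the same number were more alike than by chance was not tested. Deviations of same-numbered rats correlated at -0.12 to 0.17 for NASH and control, 0.03 to 0.12 for NASH-CH and control and -0.07 to 0.08 for the models, and 6, 5 and 3 of 12 rats correlated best with their own number. With a replicate block, 0 other clock genes passed in NASH against control, 3 members passed in NASH-CH against control and 2 other clock genes passed between the models, while all calls numbered 444, 2095 and 540.

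Some signs turned. With Arntl as a covariate, Npas2 went from -0.61 to 0.18 in NASH and to 0.29 in NASH-CH and Dbp from 1.61 to -0.44 in NASH-CH against control, and Per2 was at -0.03 between the models. Between NASH-CH and NASH rats, Arntl was at 0.12 with edgeR and 0.11 with DESeq2, Dbp at 0.14 with both, Npas2 at 0 with DESeq2 size factors, -0.34 with quality weights and -0.22 with thinned counts, and Cry1 at 0.06 with quality weights. With 1 rat left out, the same comparison ran from -0.69 to 0.24 for Arntl, -0.38 to 0.34 for Npas2, -0.03 to 0.19 for Per1, -0.14 to 0.39 for Per2, -0.27 to 0.03 for Cry1, -0.86 to 0.34 for Dbp and -0.03 to 0.42 for Tef. Without the 2 farthest control rats, r went from -0.96 to 0.42 for Arntl and Nr1d1 and from 0.98 to -0.06 for Dbp and Per3. With library size only, Arntl and Dbp in NASH-CH rats no longer passed.

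Over all genes the calls moved from 403 to 652 (edgeR), 1228 (DESeq2), 865 (library size only), 1509 (quality weights), 644 (2 groups alone), 268 (no filter) and 231 (Arntl covariate) in NASH, from 2192 to 5495 (no filter) and 1408 (2 groups alone) in NASH-CH, and from 542 to 949 (DESeq2), 2649 (no filter) and 349 (2 groups alone) between the models. With library size only, the median log2 fold change over all genes was 0.23 for NASH and 0.27 for NASH-CH. The 6 rats per group limit the precision, and totals give counting error only.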
